A study of Homo sapiens with 6 samples.

Results

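Described here are 10 zinc finger genes on the long arm of chromosome 19 around ZFP28, measured by RNA sequencing in heart muscle cells that were differentiated from a human stem cell line. They were taken by symbol from a table of 35793 genes: ZFP28, ZNF667, ZNF471, ZNF470, ZNF583, ZNF582, ZNF71, ZNF835, ZNF264 and ZNF460. The set was drawn up after differences between the genotypes in these libraries were known, so the wild-type and knockout values of the 10 genes are a description and carry no test. The study compared WTC11, an established stem cell line, with its derivative in which both copies of STK25, a kinase gene, were knocked out by CRISPR/Cas9. Both were differentiated to cardiomyocytes and collected on day 15, with no treatment and 3 biological replicates per genotype, 6 libraries in all. Each genotype was 1 cell line, so the edit and any other difference between the lines cannot be told apart.

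C2H2 zinc finger proteins bind DNA through tandem fingers that each hold a zinc ion between a pair of cysteines and a pair of histidines. Many of those encoded on chromosome 19 also carry a KRAB domain, which recruits the corepressor TRIM28 and, through it, the histone methyltransferase SETDB1 and heterochromatin proteins, and many of them silence transposable elements. Their genes lie in clusters that arose by tandem duplication, and several of those near ZFP28 have promoters rich in CpG that are known to become methylated in tumours. ZNF667 was also named MIPU1, for its rise in preconditioned heart muscle.

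The libraries held from 22443904 to 53224112 reads assigned to genes. Values are normalized counts, the number of reads of a gene divided by 1 factor per library, and 15536 genes with a mean of at least 10 were tested. The first principal component (55.6% of the variance) separated the genotypes, and on the second (24.1%) replicate 2 of the wild type and replicate 1 of the knockout stood apart. STK25 had 8874, 6774 and 8710 normalized counts in the wild type and 3906, 3434 and 3820 in the knockout (log2 fold change -1.12, SE 0.19, limma adjusted p = 0.00903). Without wild-type replicate 1 its adjusted p was 0.0611. Summed over 6 cardiomyocyte markers, wild-type libraries had 736465 to 797474 normalized counts and knockout libraries 861115 to 890250. Other cell types' markers were lower in sum, from 99.7 for 5 epicardial genes to 26410 for 6 fibroblast genes. In the 6 pluripotent markers wild-type sums were 485 to 979 and knockout sums 207 to 422, with 0 of 5 tested genes past the threshold by limma, and in the 6 neural markers from 4536 to 7866 and from 6974 to 16714, with 2 of 3 higher. The sums for the other lists were, in wild type and knockout, 12845 to 26410 and 7652 to 16132 for fibroblast genes (2 of 6 higher, 1 lower), 139 to 465 and 367 to 545 for 5 endothelial genes (0 of 3 past the threshold), 99.7 to 184 and 500.3 to 644 for epicardial genes (1 of 4 higher), and 1659 to 3003 and 1191 to 1248 for 6 endoderm genes (1 of 3 lower), among which FOXA2 was at 0 in every library. 1 of 6 cardiomyocyte markers was lower. The part of these shifts in the values below was not tested, and in bulk RNA fewer cells of a type and less RNA per cell cannot be told apart.

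The 10 genes span chromosome 19 from 56375846 to 57293569 (918 kb) in GENCODE 29 on GRCh38, the build that the submitters' processing notes name. All are protein-coding. In order along the chromosome they are ZNF582, ZNF583, ZNF667, ZNF471, ZFP28, ZNF470, ZNF71, ZNF835, ZNF264 and ZNF460. ZFP28 (ENSG00000196867.7) lies on the plus strand from 56538948 to 56556810, with ZNF471 (56507843 to 56530221, plus strand) on one side and ZNF470 (56567511 to 56588911, plus strand) on the other. ZNF667 (ENSG00000198046.11, 56439325 to 56478065, minus strand) lies beyond ZNF471, and ZNF583 (56397966 to 56436035, plus strand) and ZNF582 (56375846 to 56393545, minus strand) beyond that. ZNF71 (56595264 to 56626481, plus strand) and ZNF835 (56661981 to 56671783, minus strand) follow ZNF470. ZNF264 (57191500 to 57222846) and ZNF460 (57280051 to 57293569), both on the plus strand, lie past the imprinted gene PEG3.

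RefSeq promoter sequences (GRCh38.p14) matched 8 of the 10 genes, all except ZFP28 and ZNF471. The bases before the start site are shown for ZNF667, which was nearly lost in the knockout, and for ZNF583, ZNF470 and ZNF71, neighbours on both sides whose levels overlapped between genotypes. Capitals mark CG dinucleotides, and each sequence stops where an annotated untranslated region begins. The starts are RefSeq's. For ZNF667 and ZNF583 they lie inside the gene as GENCODE draws it, so those 2 stretches are not upstream of the GENCODE starts.
ZNF583 (chr19:56403764-56404013, plus strand): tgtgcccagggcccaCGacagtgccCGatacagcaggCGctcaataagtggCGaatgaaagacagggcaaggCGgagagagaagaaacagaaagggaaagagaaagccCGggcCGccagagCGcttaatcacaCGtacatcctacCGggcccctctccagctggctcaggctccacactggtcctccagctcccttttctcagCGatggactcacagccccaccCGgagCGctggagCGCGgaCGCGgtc
ZNF667 (chr19:56477375-56477595, minus strand): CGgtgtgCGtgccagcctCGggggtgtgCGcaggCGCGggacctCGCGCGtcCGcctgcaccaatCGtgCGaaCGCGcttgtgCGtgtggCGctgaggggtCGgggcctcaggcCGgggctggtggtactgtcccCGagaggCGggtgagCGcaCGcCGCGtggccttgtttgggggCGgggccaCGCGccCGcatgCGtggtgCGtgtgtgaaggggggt
ZNF470 (chr19:56567218-56567467, plus strand): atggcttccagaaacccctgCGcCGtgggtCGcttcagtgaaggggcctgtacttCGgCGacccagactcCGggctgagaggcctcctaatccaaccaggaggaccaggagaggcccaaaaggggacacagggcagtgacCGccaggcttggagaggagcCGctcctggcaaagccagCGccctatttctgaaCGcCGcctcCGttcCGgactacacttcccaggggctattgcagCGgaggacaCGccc
ZNF71 (chr19:56595052-56595263, plus strand): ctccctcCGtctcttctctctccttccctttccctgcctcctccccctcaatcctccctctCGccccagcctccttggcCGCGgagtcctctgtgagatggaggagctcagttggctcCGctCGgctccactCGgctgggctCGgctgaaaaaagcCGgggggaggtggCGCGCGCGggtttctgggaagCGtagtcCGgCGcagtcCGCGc
In the full 300-base windows ZNF667 held 42 CG dinucleotides, the most of the 10 windows matched (2 genes have 2 starts), and 5.85% of all 35116 promoters held at least as many. ZNF71 held 31, ZNF582 30, ZNF835 29, ZNF264 23 and ZNF470 21, against a median of 14 over all promoters. ZNF583 held 23 and 30 at its 2 starts, and ZNF460 13 and 27. On either strand the SP1 motif GGGCGG was in the ZNF667 window and in 45.0% of all promoters, and the NRF1 half-site TGCGCA was there and in 8.24% of them. SP1 letters were also found for ZNF71, ZNF835, ZNF264, both starts of ZNF460 and the second of ZNF583, and NRF1 letters for ZNF582, ZNF835 and the second starts of ZNF583 and ZNF460. The ETS motif CCGGAAG, in 10.3% of all promoters, was in the windows of ZNF582, ZNF470, ZNF264 and the first start of ZNF460. Methylation was not measured, and a match is only a match of letters.

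ZFP28, a KRAB zinc finger gene, was on in the wild type and all but absent in the knockout. It had 313, 194 and 399 normalized counts in wild-type replicates 1, 2 and 3 and 0, 0 and 0.889 in knockout replicates 1, 2 and 3. The groups were far apart, and the highest knockout library held a single read. In reads, the wild type had 207, 255 and 626 and the knockout 0, 0 and 1. The means were 302 ± 103 and 0.296 ± 0.513 (SD, n = 3 each). Pooling the libraries of each genotype, the wild-type rate was 863 times that of the knockout, with an exact 95% interval of 155 to 34107 that covers counting error only. The fit gave -7.88 for the log2 fold change (SE 0.59), which depends on the pseudocount because the knockout is at the floor. Leaving out the libraries that stood apart gave -8.16 (wild-type replicate 2) and -7.72 (knockout replicate 1). Among the 515 tested genes with a ZNF or ZFP symbol the fitted -7.88 was the lowest value, and it was number 10 from the bottom of all 15536. The rank is a description only, since the gene was chosen on this contrast.

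ZNF667, a KRAB zinc finger gene transcribed on the other strand with its start 66 bases from that of the long noncoding RNA ZNF667-AS1 (also MORT), was also low in the knockout, but not absent. Its normalized counts were 356, 181 and 175 in the wild type and 8.90, 10.03 and 8.89 in the knockout. The wild-type replicates differed among themselves by 2.03 times and the knockout replicates by 1.13 times, with no overlap between genotypes. In reads the knockout libraries held 7, 9 and 10, above the floor of 3 reads in each. The means were 237 ± 103 and 9.27 ± 0.657 (SD, n = 3 each), so the wild type was 25.6 times the knockout (log2 fold change -4.46, SE 0.45). Leaving out wild-type replicate 2 gave -4.61, and leaving out knockout replicate 1 gave -4.43. ZNF667-AS1 was not analysed here.

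ZNF471 sits between ZNF667 and ZFP28 and did not follow them to the floor. It had 136, 144 and 98.2 normalized counts in the wild type and 83.9, 60.2 and 70.2 in the knockout. The groups did not overlap, but the gap between the lowest wild-type and the highest knockout library was small beside that of its neighbours on both sides. The means were 126 ± 24.4 and 71.4 ± 11.9 (SD, n = 3 each), 56.7% of the wild-type mean (log2 fold change -0.80, SE 0.35), and with the libraries scaled to equal totals the value was -1.08. That scaling moved the median of all tested genes from 0.0052 to -0.28.

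ZNF470, the neighbour of ZFP28 on the other side, had values that mixed between genotypes. It had 284, 155 and 288 normalized counts in the wild type and 277, 250 and 178 in the knockout. The lowest of the 6 libraries was wild-type replicate 2 (log2 fold change -0.01, SE 0.35). ZNF71, the next gene on, was the most abundant of the 10 in total counts, with 651, 546 and 704 in the wild type and 517, 821 and 567 in the knockout. Its knockout libraries lay on both sides of the wild-type ones (log2 fold change -0.02, SE 0.25). With quantile normalization both values were above 0, at 0.19 for ZNF470 and 0.069 for ZNF71. The knockout mean was 96.9% of the wild-type mean for ZNF470 and 100.2% for ZNF71. Their starts lie 28.6 kb and 56.3 kb from that of ZFP28. For ZNF667, on the other side, the knockout mean was 3.90% of the wild-type mean. ZNF667 is on the minus strand, so its start is its highest coordinate, 56478065. Its lowest coordinate, its end, lies 99.6 kb from the start of ZFP28.

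**Figure D1:**
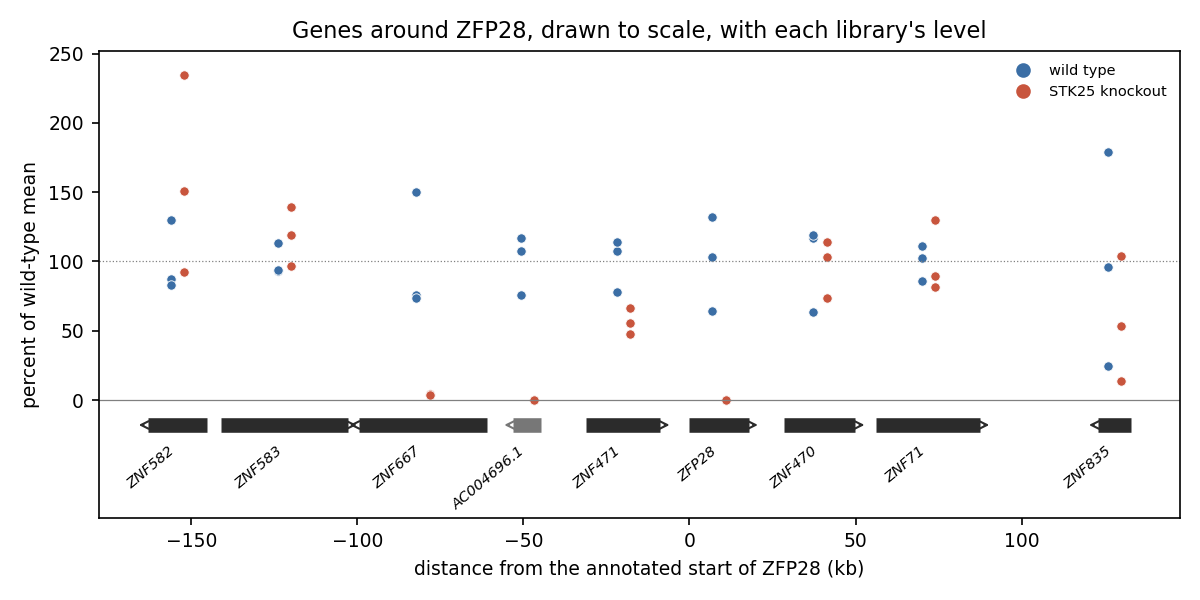
Genes around ZFP28 drawn to scale against the distance from its annotated start (kb), with arrows for strand, and above each gene the normalized count of each library as a percent of the wild-type mean (blue wild type, red knockout, shifted sideways so that they can be told apart). The knockout points of ZNF667, AC004696.1 and ZFP28 lie at or near 0, while for ZNF583, ZNF470 and ZNF71 the ranges of the genotypes overlap.

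On the ZNF582 side, ZNF583 had 363, 439 and 363 normalized counts in the wild type and 461, 374 and 540.3 in the knockout, which overlapped. The fitted difference on the log2 scale was 0.23 (SE 0.25), or -0.051 with equal totals. ZNF582, whose promoter is a known target of methylation in cervical cancer, had 290.0, 432 and 276 in the wild type and 780.5, 308 and 500.3 in the knockout. The highest value in each genotype came from the library that stood apart, 1.53 times the mean of the other wild-type libraries and 1.93 times that of the other knockout libraries. On the log2 scale ZNF582 differed by 0.60 (SE 0.38), and by 0.27 without knockout replicate 1.

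The 3 remaining genes lie farther along. ZNF835 was the least abundant of the 10 in the wild type, with 4.53, 17.5 and 32.5 normalized counts there and 2.54, 18.9 and 9.78 in the knockout, and its log2 fold change of -0.72 (SE 0.96) was smaller than its error. It became -0.041 when knockout replicate 1 was left out and -1.45 when wild-type replicate 1 was. ZNF264 had 166, 241 and 228 in the wild type and 239, 132 and 133 in the knockout (log2 fold change -0.37, SE 0.35). Its knockout replicate 1 was 1.80 times the mean of the other knockout libraries. ZNF460 had 125, 16.8 and 113 in the wild type and 28.0, 155 and 85.3 in the knockout, so that each genotype held 1 low library, again wild-type replicate 2 and knockout replicate 1. Those were 0.141 and 0.233 times the mean of the others, and the log2 fold change of 0.20 (SE 0.90) became 0.87 without knockout replicate 1, -0.72 without wild-type replicate 2 and -0.073 with equal totals.

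**Figure D2:**
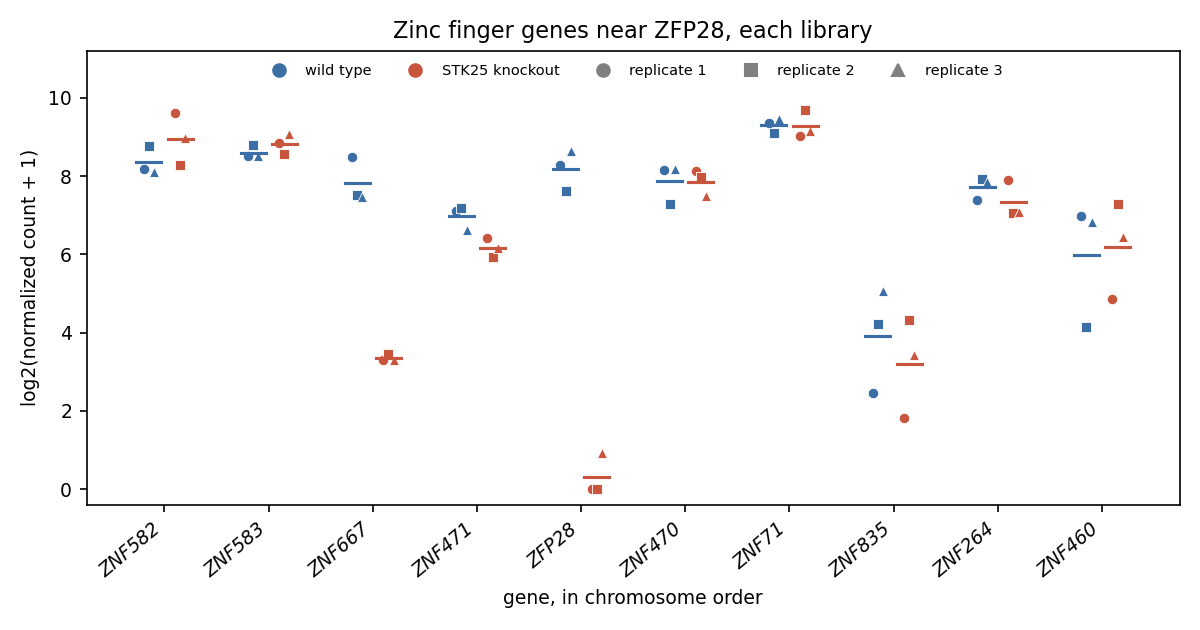
Level of each gene on the log2(normalized count + 1) scale in each of the 6 libraries, in chromosome order; bars are means, colours are genotypes and symbols replicate numbers. ZFP28 and ZNF667 separate by genotype by a wide margin, ZNF471 by a narrow one, and in ZNF460 replicate 2 of the wild type and replicate 1 of the knockout are low.

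Per kilobase of the longest annotated transcript, ZNF582, ZNF71 and ZNF583 led in both genotypes. In the wild type ZNF582 (118 ± 30.6 normalized counts per kb, SD, n = 3) and ZNF71 (117 ± 14.8) were highest, and their ranges overlapped. ZNF583 (79.0 ± 9.01) came next, with no overlap with ZNF71, and overlapped ZFP28 (73.7 ± 25.1), then ZNF667 (45.2 ± 19.6), ZNF470 (33.9 ± 10.6), ZNF460 (25.4 ± 17.7), ZNF471 (20.0 ± 3.88) and ZNF264 (17.4 ± 3.31), each overlapping the one before. ZNF835 (5.27 ± 4.06) was below ZNF264 with no overlap. In the knockout ZNF582 (187 ± 84.2 per kb), ZNF71 (117 ± 30.1) and ZNF583 (93.3 ± 16.9) again led, and ZNF583 did not overlap the next gene, ZNF470 (32.8 ± 7.18). ZFP28 went from the fourth place to the last (0.0723 ± 0.125 per kb) and ZNF667 from the fifth to the ninth (1.77 ± 0.125), and their knockout ranges did not overlap.

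All 10 genes passed the filter of a mean of at least 10. With limma's moderated test on log2(value + 1) and Benjamini-Hochberg adjustment over all genes, 2 of the 10 (20%) were past an adjusted p of 0.05, ZFP28 and ZNF667, both lower. Over all tested genes 12.8% were past it in either direction 6.79% were past it and lower, and 5.97% past it and higher; with edgeR on the recovered reads 12% were past it. The genotypes did not overlap for 3 of the 10, all lower in the knockout, against 33.4% of all tested genes in either direction and 17.2% in that direction. Nothing is read from these shares, since the genes were chosen on this contrast. The median log2 fold change of the 10 was -0.20, beside 0.0052 for all tested genes, and 7 were below 0 and 3 above. ZFP28 and ZNF667 were past the threshold in all 15 alternative analyses. The other 8 genes were past it in none of those in which they were tested (14 for ZNF835, 15 for each of the others). These calls, on the same libraries, are a description only.

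The 21 other genes of the interval that the table lists were examined without regard to how they moved. Only 3 reached a mean of 10, and 1 of these 3 was past the threshold, against 12.8% of all genes. The interval is bounded by genes chosen on this contrast, so this share is a description only. The gene past the threshold was AC004696.1 (ENSG00000276578.1), an unprocessed pseudogene on the minus strand from 56485923 to 56494280, between ZNF667 and ZNF471. It passed the filter through its wild-type values alone. It had 246, 225 and 159 normalized counts in the wild type and 0, 0 and 0 in the knockout, so no knockout library held a read. The wild-type mean was 210 ± 45.6 (SD, n = 3), at least 197-fold above the level of 3 reads over the knockout group (1.07 normalized counts). The fitted log2 fold change was -7.70 (SE 0.57, limma adjusted p = 0.000303). The gene was past the threshold in all 15 alternatives, with adjusted p-values from 9.05e-14 to 0.00626. It was matched by symbol alone. Of its 577 31-base words 90 (15.6%) also occur in transcripts of ZNF667-AS1, which overlaps it on the other strand, so reads of that RNA could have been counted here. ZNF667-AS1 starts 66 bases from the start of ZNF667, so AC004696.1 and ZNF667 may not be separate evidence.

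The other genes of the interval were low or mixed. ZNF805, a zinc finger gene between ZNF264 and ZNF460, had 112, 63.2 and 76.5 normalized counts in the wild type and 39.4, 111 and 66.7 in the knockout (log2 fold change -0.29, SE 0.48, limma adjusted p = 0.759). The value was 0.080 without knockout replicate 1. AURKC, a kinase of meiotic cells, had 15.1, 30.5 and 8.29 in the wild type and 0, 20.1 and 4.44 in the knockout (log2 fold change -1.79, SE 1.18, limma adjusted p = 0.382). For AURKC the value was -0.65 with knockout replicate 1 left out and -2.84 with knockout replicate 2 left out. The imprinted PEG3 and its neighbour ZIM2 were listed at 0 in every library, where up to 3 reads per library would be within counting error. USP29, of the imprinted PEG3 domain, had from 1.51 to 7.80 normalized counts and ZIM3 from 0 to 15.3. SMIM17 had from 0 to 17.8, AC006116.4 from 0 to 10.2 and SIGLEC31P from 0 to 6.86. The pseudogenes SLC25A36P1, AC006115.2 and AC025588.1 and the gene DUXA stayed under 2 normalized counts, and AC006115.1, OR5AH1P, AC044792.1, RPL7AP69, AC025588.4, AC025588.2 and AC025588.3 were at 0. Of the 10 zinc finger genes, 6 have an annotated start on the opposite strand within 1000 bases, at a distance of 66 bases for ZNF667, 100 for ZNF470, 111 for ZNF582, 151 for ZNF460, 373 for ZFP28 and 485 for ZNF835. Of these partners AC006115.1, beside ZNF835, was at 0, and the others were not analysed here.

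Within 1000 kb on either side of the interval 65 genes were tested and 2 (3.08%) were past the threshold, against 12.8% of all genes, with a median log2 fold change of -0.0042. Both were KRAB zinc finger genes and both fell. ZNF154 (57697367 to 57709194) had 1106, 1138 and 1185 normalized counts in the wild type and 320.3, 427 and 519 in the knockout, with no overlap (log2 fold change -1.46, SE 0.24, limma adjusted p = 0.00796). ZNF154 was past the threshold in all 15 alternatives. ZNF418 (57921884 to 57935393) had 281, 401 and 381 in the wild type and 78.8, 165 and 101 in the knockout (log2 fold change -1.67, SE 0.36, limma adjusted p = 0.0215). Its adjusted p was 0.0788 without knockout replicate 3 and 0.0634, 0.0622 and 0.0888 without wild-type replicates 1, 2 and 3, and 0.0559 with the replicate number as a block. The count of 2 was 1 without knockout replicate 3 or any 1 wild-type library, 3 without knockout replicate 1 or 2, and 6 with DESeq2.

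**Figure D3:**
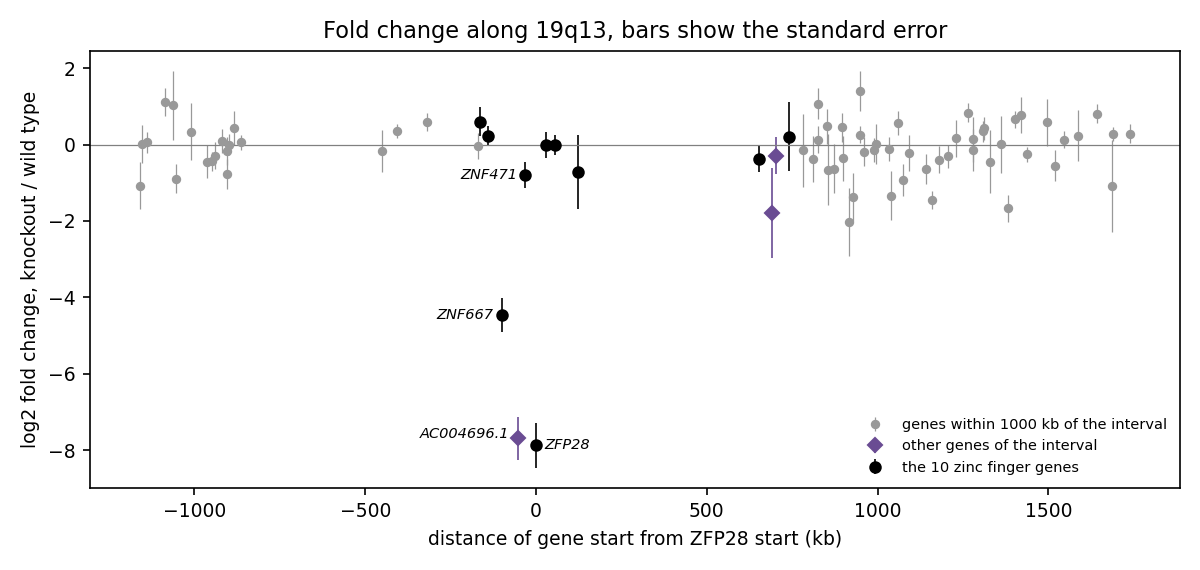
Fitted log2 fold change (knockout over wild type) of the tested genes in the interval and within 1000 kb of it. The horizontal axis is the distance from the start of ZFP28 (kb). Each gene is placed by its lowest coordinate, labelled as gene start, which on the minus strand is the gene's end. Bars are standard errors of limma's fit. ZFP28, AC004696.1 and ZNF667 lie far below the others.

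Zinc finger genes elsewhere were counted by symbol (ZNF or ZFP and a digit). The class of finger was not checked, and ZFP36 and ZFP36L1, both past the threshold, were included. On the rest of chromosome 19 the count was 14 of 193 (7.25%), 7 higher and 7 lower, with a median log2 fold change of 0.01. Of the 7 lower, ZNF404, ZNF223, ZNF285 and ZNF229 lie in 1 stretch described at the end. On the other chromosomes the count was 29 of 264 (11.0%), 11 higher and 18 lower, with a median of -0.17, against 12.8% of all genes and a median of 0.0052. Among those past the threshold that averaged 50 or more in the higher genotype, the lowest values were of ZNF501 on chromosome 3 (95.3 ± 26.2 to 0.424 ± 0.734 normalized counts, SD, n = 3 each, with 1 knockout read in all), ZNF223 (287 ± 111 to 5.25 ± 5.33) and ZNF285 (188 ± 29.8 to 2.90 ± 0.818), both on chromosome 19. On the log2 scale they fell by 6.16, 6.05 and 5.61, with limma adjusted p-values of 0.00161, 0.00521 and 0.000521. These sizes and their order depend on the pseudocount: at 10 they were -3.31 for ZNF501, -4.28 for ZNF223 and -3.93 for ZNF285, and at 0.1 ZNF501 was at -8.60. ZNF223 was at -5.03 with knockout replicate 2 left out and -6.80 with knockout replicate 3 left out. By the same rule the largest rises were of ZNF37A on chromosome 10 (33.6 ± 8.49 to 309 ± 58.5), ZNF726 on chromosome 19 (11.5 ± 3.10 to 110 ± 39.4) and ZNF680 on chromosome 7 (26.6 ± 10.4 to 182 ± 65.2). On the log2 scale these rises were 3.17, 3.11 and 2.76, with limma adjusted p-values of 0.00157, 0.00601 and 0.00993. These 6 genes were past the threshold in every alternative in which they were tested. The counts changed when single libraries were left out, as did that of all genes. The 14 became 9 without knockout replicate 2, 6 without knockout replicate 3, 7 without wild-type replicate 1 and 6 without wild-type replicate 3. In the same order the 29 became 18, 14, 8 and 9, and the 1982 of all genes became 1270, 963, 792 and 911. Without wild-type replicate 2 the 29 became 19 and the 1982 became 1565. Without knockout replicate 1 the counts rose to 18, 32 and 2192.

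**Figure D4:**
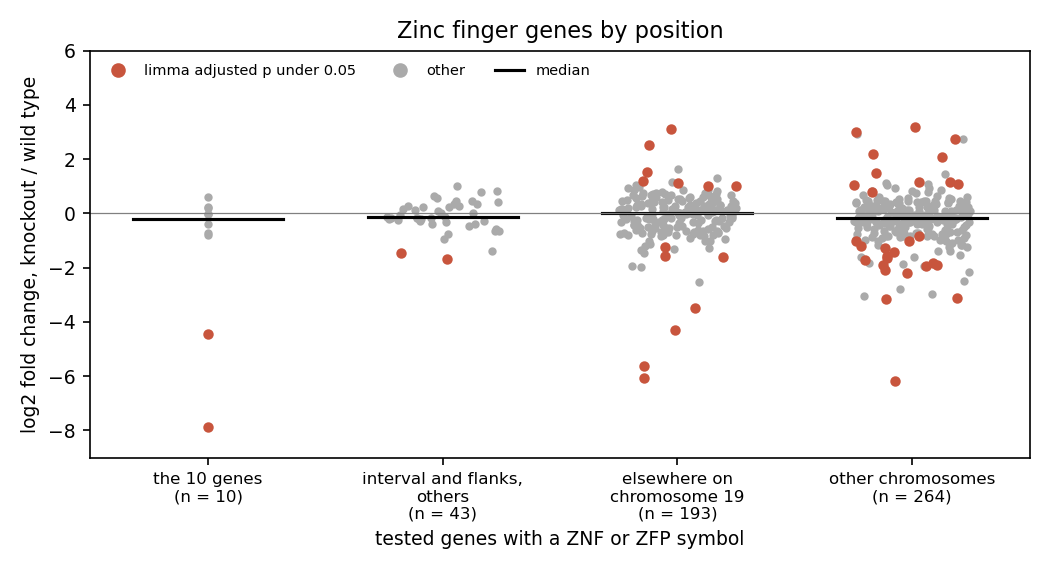
Fitted log2 fold change of 510 tested genes with a ZNF or ZFP symbol and a position, by place in the genome; lines are medians and red points have a limma adjusted p under 0.05, which for the 10 genes is a description only. The medians run from -0.20 to 0.01 and the lowest point is ZFP28.

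The machinery that KRAB zinc finger proteins recruit, with enzymes of DNA methylation, was counted over 30 genes. Of these 1 (3.33%) was past the threshold against 12.8% of all genes, and the median log2 fold change was -0.15. The values were below 0 for 19 genes and above 0 for 11. The genotypes did not overlap for 9 (30%), 8 of them lower, against 33.4% of all tested genes in either direction and 17.2% lower. TRIM28, the corepressor itself, also on chromosome 19 (58544091 to 58550722), had 8400, 7770 and 8647 normalized counts in the wild type and 4973, 5660 and 4647 in the knockout. The groups did not overlap, and the log2 fold change was -0.70 (SE 0.17, limma adjusted p = 0.0373). It was past the threshold in 8 of 15 alternatives, with adjusted p-values from 0.00128 to 0.216. The call was lost without knockout replicates 2 or 3 (adjusted p = 0.0699 and 0.157) and without wild-type replicates 1, 2 or 3 (0.160, 0.0550 and 0.141). The list's count was 0 without knockout replicate 2 or 3 or wild-type replicate 1 or 3, and 5 without knockout replicate 1, and at an unadjusted p under 0.05 it was 7 with all libraries. The methyltransferase SETDB1 was at -0.12 on the log2 scale (SE 0.23, limma adjusted p = 0.793), the maintenance DNA methyltransferase DNMT1 -0.02 (SE 0.21, limma adjusted p = 0.971) and the demethylase TET1 0.0054 (SE 0.28, limma adjusted p = 0.994). Other genes of the list were lower without passing the threshold. They included EHMT2 (-0.70), CBX5 (-0.67), TASOR (-0.64) and DNMT3A (-0.63), with limma adjusted p-values from 0.0835 to 0.102. Of the 11 genes above 0, the highest were MPHOSPH8 (0.52), SUV39H2 (0.39), PPHLN1 (0.31) and DAXX (0.30), with limma adjusted p-values from 0.260 to 0.595. The de novo methyltransferase DNMT3B had a mean of 441 ± 203 in the wild type and 74.7 ± 60.8 in the knockout (SD, n = 3 each). It did not pass the test (log2 fold change -3.20, SE 1.02, limma adjusted p = 0.0835). DNMT3B is also one of the pluripotent markers above.

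As a description over 6 libraries, the tested genes whose profiles were most like that of ZFP28 were SMARCD3 (Pearson r = 0.9994), a subunit of chromatin remodelling complexes in heart muscle, the ventricular repressor HEY2 (0.9985), AL591806.3 (0.9977), the imprinted PEG10 (0.9970) and TSPYL5 (0.9969). Their values differ mainly by genotype, as do those of ZFP28, and no p is given. The r takes no account of the size of a change. In the knockout SMARCD3 was at 51.6% of its wild-type mean and ZFP28 at 0.098%. TSPYL5 went from 441 ± 141 normalized counts to 0 in every knockout library. Among the 10 genes r with ZFP28 was 0.984 for ZNF667, 0.849 for ZNF471 and 0.454 for ZNF264, and between -0.588 and 0.338 for the others.

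Because these genes arose by duplication, the words of 31 bases that each shares with transcripts of other genes were counted; the submitters' processing notes name kallisto, which assigns reads by matching short words. The share was 0.618% for ZFP28, 0.534% for ZNF582, 1.17% for ZNF71, 4.46% for ZNF667, 5.61% for ZNF471 and 5.20% for ZNF470. It was 6.73% for ZNF835, 8.50% for ZNF583, 9.42% for ZNF264 and 14.6% for ZNF460, most of the last with the overlapping AC005261.5. Whether strand was used in counting is not given in the sources used here, so reads of overlapping antisense genes cannot be told apart.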

How the data were processed

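RNA was measured in 6 libraries, 3 per genotype. Per the labels' protocols, column-purified, DNase-treated RNA was copied with Clontech's Ultra Low v4 cDNA kit, and NexteraXT was used for the libraries. The submitters' processing notes name GRCh38, bcl2fastq 2.19, kallisto 0.44.0 and DESeq2 1.28.1, with no role or order; the annotation is not given in the sources used here. The deposited table holds a signal that the authors call normalized counts, 1 value per symbol and library. Within a tolerance of 0.01, 100% of the values were whole multiples of 1 step per library, which gave back the reads. Of 35793 genes 11622 had no read. Replicates differed beyond sampling noise, and p-values measure the spread between these libraries.

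The members and lists were chosen with earlier results of these data known. The test was limma 3.58.1 (R 4.3.3; lmFit and eBayes with trend) on log2(value + 1), restricted to genes averaging 10 or more, with Benjamini-Hochberg adjustment over all 15536 genes and a threshold of 0.05. It was also run on simulated counts drawn independently for each gene and library. The simulation held no libraries that stood apart, so no support is taken from it. Fold changes on this scale understate the change of low genes. Alternatives were pseudocounts of 0.1 and 10, no filter, a mean of at least 50, equal totals, quantile normalization, a replicate block, edgeR 4.0.16 and DESeq2 1.42.0 on the recovered reads, and leaving out each of 6 libraries. On those reads edgeR called 1864 genes (12%).

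Named were the 10 genes, STK25, the other genes of the interval, partners with starts within 1000 bases, flank and corepressor genes past the threshold (at most the 6 with the lowest p), the 3 largest rises and 3 largest falls among zinc finger genes elsewhere that averaged 50 or more in either genotype, and the 5 genes most like ZFP28. SETDB1, DNMT1, TET1, DNMT3B, EHMT2, CBX5, TASOR, DNMT3A, MPHOSPH8, SUV39H2, PPHLN1 and DAXX were named after their values were seen. Zinc finger genes were taken by symbol, since no protein sequences were used here, and 5 of 515 had no single position. Positions are from GENCODE 29. Motifs were chosen after the sequences were seen. The exact interval covers 95% and counting error only.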

Additional observations from a re-analysis of the deposited data

How the results depend on the processing

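ZFP28 and ZNF667 were the 2 of the 10 genes past the threshold in all 15 alternatives. The 10 genes were chosen on this contrast, so their calls are a description only. The count for other genes of the interval, which these 10 genes bound, stayed at 1 and is likewise a description. The median log2 fold change of the 10 genes, -0.20, was -0.48 with equal totals and lay between -0.44 and -0.043 with any 1 library removed. With DESeq2 the counts were 3210 for all genes (1982 by limma), 6 for the flanks, 25 for zinc finger genes elsewhere on chromosome 19, 55 for those on other chromosomes and 5 for corepressors. With the replicate number as a block they were 798, 1, 7, 9 and 0 (2 corepressors at an unadjusted p under 0.05), and TRIM28 (0.216), ZNF418 (0.0559) and STK25 (0.0684) lost their limma calls. Samples with the same number correlated at -0.235, -0.400 and 0.169, and those with different numbers at -0.350 to 0.448. These values show no pairing by number, but with 3 libraries per genotype they cannot exclude it. Leaving out 1 library gave 792 to 2192 for all genes, 1 to 3, 6 to 18, 8 to 32 and 0 to 5. The corepressor count was 4 with equal totals, 2 with quantile normalization and 0 with no filter (7 unadjusted; TRIM28 limma adjusted p = 0.0600). ZNF805 ranged from -0.66 (without knockout replicate 2) to 0.080 (without knockout replicate 1). Equal totals moved the share of higher calls from 46.8% to 27.1%. The cause was not tested. ZFP28 had 1 read in the knockout libraries together, and its fitted log2 fold change ranged from -10.4 (pseudocount 0.1) to -4.87 (pseudocount 10).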

Other observations

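A second stretch of zinc finger genes on chromosome 19, chosen after its values were seen and so given without support from its count, ran from ZNF404 (start 43872363) to ZNF229 (end 44448578). Of 19 tested genes there 5 were past the threshold by limma, against 12.8% of all tested genes. All 5 were lower in the knockout, among them ZNF223 and ZNF285. AC067968.1, another of the 5, spans all of ZNF223 on the same strand, so these 2 may share reads and are not separate evidence. ZNF404 had 296 ± 100.04 normalized counts in the wild type and 28.2 ± 18.6 in the knockout (SD, n = 3 each; log2 fold change -3.47). ZNF229 had 70.1 ± 30.5 and 2.68 ± 1.57 (log2 fold change -4.29). AC067968.1 had 50.3 ± 14.1 and 1.48 ± 2.57 (log2 fold change -4.83, limma adjusted p = 0.0121), and its adjusted p was 0.0734 without wild-type replicate 1 and 0.0593 without wild-type replicate 3. Its log2 fold change was -5.65 with knockout replicate 3 left out. The other 14 genes had log2 fold changes from -1.29 to 0.82. Both ends of the stretch were set at genes past the threshold, so the arrangement of genes within it is a description only.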
